A study of Mus musculus with 2 samples.

Results

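The genes described here are 10 heat shock chaperones, taken by symbol from the 22556 genes of a count table of mouse embryonic stem cells (mESCs): Hspa8, Hspa1a, Hspa1b, Hspa4, Hspa5, Hspa9, Hsp90aa1, Hsp90ab1, Hspd1 and Hspe1. The cells were the female iXist-ChrX-Dom line, a cross of the domesticus strain 129S with castaneus (Dom/129S x Cast), in which the Xist promoter on the Dom/129S allele had been replaced by a TetOn promoter. Both libraries came from this 1 line, with no doxycycline (0 h), so Xist was not induced, and the cells were grown in serum with LIF on feeder fibroblasts that were removed by pre-plating. The labels gave 1 group of 2 replicates, did not say whether these were separate cultures, and named the cell type as mESC to NPC (neural precursor cell), while the source field and the titles named mESCs. The study used these libraries to rank genes by their level before Xist induction, so no treatment is compared, and every test below compares 2 libraries, not conditions.

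Heat shock chaperones bind unfolded or partly folded proteins and help them to fold, to cross membranes or to be assembled into complexes. HSP70 proteins bind and release short hydrophobic stretches in a cycle of ATP hydrolysis that J proteins and nucleotide exchange factors drive, HSP90 acts later on kinases, nuclear receptors and other clients with its own cochaperones, and the chaperonin of the mitochondrial matrix folds proteins inside a closed chamber. Some members are made constantly in growing cells, while Hspa1a and Hspa1b are known for their steep induction by heat shock factor 1.

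The table summed to 23716499 counts for replicate 1 and to 20275749 for replicate 2. The limit that an observed 0 allows is 3 counts, which corresponds to 0.126 and 0.148 counts per 1000000 (CPM), and all intervals here cover counting error only. Levels are given as transcripts per 1000000 (TPM), computed with exonic length. Of 10 ES cell markers, 9 lay at 10 TPM or more, with a summed level of 5341 TPM in replicate 1 and 4315 TPM in replicate 2. Sox2 was listed at 0 in both libraries and lies inside another gene of the same strand, where a shared fragment may be counted for neither. Of the 10 feeder fibroblast markers none reached 10 TPM (highest mean 1.71 TPM), and the 6 neural precursor markers reached at most 3.80 TPM, with Sox1 and Olig2 listed at 0 counts, of which Sox1 also overlaps a gene of its own strand. One of the 5 primitive endoderm markers exceeded 10 TPM, at 12.2 TPM. As these are bulk libraries, fewer cells of a type and less RNA per cell cannot be told apart.

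The sequences that bear on these genes are shown first, because they define which members can be told apart in a count table and which share a regulatory stretch. Hspa1a and Hspa1b, the stress-inducible cytosolic HSP70 genes, are single-exon genes on the minus strand of chromosome 17, separated by 10119 bases. Their coding sequences were identical at 1915 of 1923 aligned bases (99.6%), with 638 bases as the longest identical run, and Hspa1b held 3 bases more. Counted from the first base of the Hspa1a start codon, with the Hspa1a base first, the 8 differences were A156G, T795G, A921G, A1380G, A1416G, A1629G, C1881G and G1884A. The last bases of each coding sequence before the stop codon (mm10, minus strand, chr17:34970003-34970077 for Hspa1a and chr17:34957082-34957159 for Hspa1b, GENCODE M21) hold the extra bases of Hspa1b and 2 of these differences, all in capitals.
Hspa1a: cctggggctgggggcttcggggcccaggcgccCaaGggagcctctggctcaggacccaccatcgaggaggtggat
Hspa1b: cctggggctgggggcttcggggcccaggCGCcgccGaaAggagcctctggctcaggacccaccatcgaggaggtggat

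The 2 genes also shared their upstream sequence. Over the 250 bases before the start site (RefSeq, GRCm38, minus strand, chr17:34972157-34972406 and chr17:34959239-34959488), 247 were identical (98.8%). Each window held 1 heat shock core, the inverted repeat that heat shock factors are known to bind, written here as GAANNTTC or TTCNNGAA. It lay 104 to 97 bases before the start and is printed in capitals. Each window also held a CCAAT box on the opposite strand, 67 to 63 bases before the start.
Hspa1a upstream: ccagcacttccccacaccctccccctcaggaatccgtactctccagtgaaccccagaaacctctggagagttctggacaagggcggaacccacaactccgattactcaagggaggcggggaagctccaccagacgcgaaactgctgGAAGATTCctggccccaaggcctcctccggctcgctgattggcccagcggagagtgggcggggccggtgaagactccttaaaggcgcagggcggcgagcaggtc
Hspa1b upstream: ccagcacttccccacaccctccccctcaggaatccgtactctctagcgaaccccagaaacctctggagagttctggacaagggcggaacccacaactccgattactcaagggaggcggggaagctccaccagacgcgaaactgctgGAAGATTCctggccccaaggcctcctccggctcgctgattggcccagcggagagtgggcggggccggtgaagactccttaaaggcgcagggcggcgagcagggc

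Hspd1 and Hspe1, which encode the ring-forming chaperonin HSP60 and its lid HSP10, lie head to head on chromosome 1 and are read in opposite directions from the 214 bases between them (mm10, plus strand, chr1:55087933-55088146, 70.1% GC). This stretch held 3 heat shock cores that overlap in 1 run, shown in capitals, at 144 to 127 bases before the Hspd1 start and 89 to 72 bases before the Hspe1 start. Since both windows cover the same bases, the cores count once, not for each gene. The promoter table also gave a second Hspd1 start, 311 bases away from the one in the count table, and its window held 0 heat shock cores.
Hspd1-Hspe1: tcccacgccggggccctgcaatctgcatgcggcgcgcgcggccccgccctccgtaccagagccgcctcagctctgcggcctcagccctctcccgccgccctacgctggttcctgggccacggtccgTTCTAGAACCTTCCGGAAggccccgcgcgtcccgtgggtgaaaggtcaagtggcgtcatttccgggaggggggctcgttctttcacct

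Hspa5 encodes BiP, the HSP70 of the endoplasmic reticulum (ER) and a classical target of the unfolded protein response. Its upstream window (RefSeq, GRCm38, plus strand, chr2:34771840-34772089) held no heat shock core, 4 CCAAT boxes and 1 ER stress element, that is CCAAT followed after any 9 bases by CCACG. The element lay 65 to 47 bases before the start, is in capitals, and contains 1 of the 4 CCAAT boxes.
Hspa5 upstream: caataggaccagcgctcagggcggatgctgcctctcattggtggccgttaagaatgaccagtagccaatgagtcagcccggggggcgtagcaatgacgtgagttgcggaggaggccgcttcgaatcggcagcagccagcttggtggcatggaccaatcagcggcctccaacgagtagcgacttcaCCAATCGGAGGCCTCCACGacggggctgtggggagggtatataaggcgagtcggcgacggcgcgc

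Both strands were searched, and 6 of the 10 members had a window in the promoter table. Among all 32851 promoters of that table, the same 250 bases held GAANNTTC in 6.69%, TTCNNGAA in 7.17%, either core in 12.8% and 3 or more cores in 0.140% (46 promoters, the Hspd1 and Hspe1 windows included). CCAAT was found in 33.8%, the ER stress element in 0.113% (37 promoters) and the TATA box TATAAA in 12.4%. The Hspa4 window held none of these letters, and no member window held TATAAA. Hspa8, Hspa9, Hsp90aa1 and Hsp90ab1 had no entry. A match describes letters only, and no binding was measured here.

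**Figure D1:**
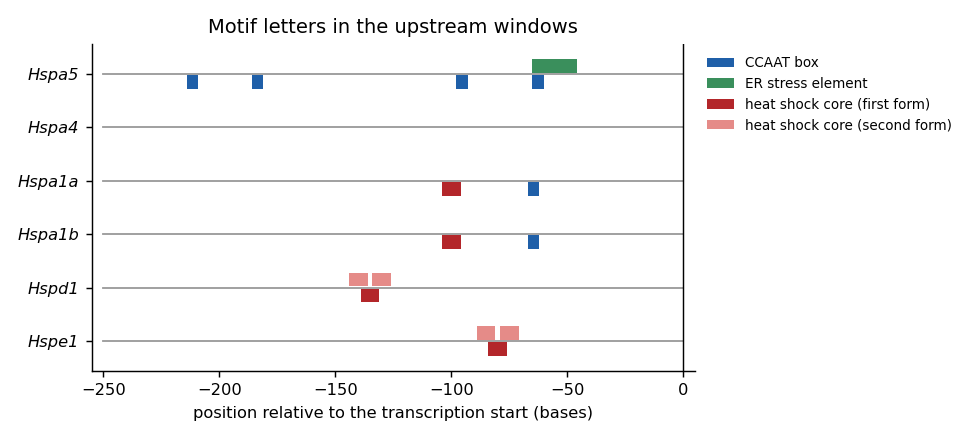
Motif letters in the 250 bases before the transcription start (horizontal axis, bases, start at 0) of the 6 members with a promoter entry (1 line each); bars mark each match and their width its length, and the first form of the heat shock core is GAANNTTC, the second TTCNNGAA. Hspa1a and Hspa1b carry 1 core at the same place, the 3 cores of Hspd1 and of Hspe1 are the same genomic bases, and the Hspa4 line is empty.

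The members together made up 1.26% of the TPM of replicate 1 and 1.21% of that of replicate 2, a mean of 1.24% ± 0.0388 (SD, n = 2). With the deposited length, which includes introns, the mean share was 2.94%. Their levels ranged from Hsp90aa1, the gene with rank 5 among 22122 genes by mean TPM, to Hspa1a at rank 14445. At 10 TPM or more lay 8 members, against 7540 of the 22122 genes with an exonic length. Their median was 828 TPM, beside 1.86 TPM for all genes.

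The HSP90 pair contributed most. Hsp90aa1 (chr12:110691035-110696395, minus strand), which encodes the alpha form of cytosolic HSP90, had 122074 counts in replicate 1 and 122000 in replicate 2, or 4802 and 5968 TPM (mean 5385 ± 824, SD, n = 2). Hsp90ab1 (chr17:45567777-45573261, minus strand), which encodes the beta form, had 47694 and 15274 counts, or 2517 and 1002 TPM (mean 1760 ± 1071, SD, n = 2). Hsp90aa1 was the higher of the pair in both libraries, by 1.91 times in replicate 1 and 5.95 times in replicate 2. The Hsp90aa1 counts were nearly the same in both libraries, while Hsp90ab1 had far fewer in replicate 2. The summed level of the pair stayed at 57.9% and 57.6% of the members' TPM.

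The cytosolic HSP70 genes spanned the widest range. Hspa8 (chr9:40801272-40805199, plus strand), the constitutive form known as HSC70, had 3910 and 1174 counts, or 217 and 81.1 TPM (mean 149 ± 96.3, SD, n = 2). It ranked below 7 other members in both libraries. Hspa1b (chr17:34956428-34959238, minus strand) had 30 and 35 counts, or 1.42 and 2.07 TPM, and Hspa1a (chr17:34969358-34972156, minus strand) had 7 and 4 counts, or 0.314 and 0.223 TPM. Both inducible genes were above the limit of 3 counts in each library, and Hspa1a only just. Hspa8 exceeded their sum by 125 times in replicate 1 and by 35.4 times in replicate 2. Hspa1b lay above Hspa1a by 4.54 times (95% exact interval 1.95 to 12.2) in replicate 1 and 9.26 times (3.31 to 35.9) in replicate 2, and neither interval included 1. As the coding sequences are almost identical, the split between these 2 genes is uncertain.

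Hspa4 (chr11:53259813-53300479, minus strand), an HSP110-type protein that acts as a nucleotide exchange factor for HSP70, had 33823 and 31947 counts, or 974 and 1144 TPM (mean 1059 ± 120, SD, n = 2). Its level was thus higher than that of any HSP70 gene among the members in replicate 2, while in replicate 1 Hspa9 was marginally higher.

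The members of the mitochondria and the ER lay between 483 and 1958 TPM in both libraries. Hspe1 (chr1:55088147-55091317, plus strand) had 10331 and 9161 counts, or 1775 and 1958 TPM (mean 1866 ± 129, SD, n = 2), and its neighbour Hspd1 (chr1:55077833-55087932, minus strand) had 15682 and 11074 counts, or 861 and 756 TPM (mean 808 ± 74.2, SD, n = 2). Per length Hspe1 was higher than Hspd1 by 2.06 times in replicate 1 and 2.59 times in replicate 2 (log2 1.21 ± 0.23, SD, n = 2), although Hspd1, whose transcript is longer, had more counts, and without the length correction the mean log2 ratio was -0.44. Hspa9, the mitochondrial HSP70 mortalin on chromosome 18, had 22746 and 12969 counts, or 992 and 704 TPM (mean 848 ± 204, SD, n = 2). The ranges of Hspa9 and Hspd1 overlapped. Hspa5 (chr2:34772089-34776529, plus strand) had 14280 and 10969 counts, or 506 and 483 TPM (mean 495 ± 16.0, SD, n = 2).

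Ordered by mean TPM, the members ran Hsp90aa1, Hspe1, Hsp90ab1, Hspa4, Hspa9, Hspd1, Hspa5, Hspa8, Hspa1b and Hspa1a. Of the 9 pairs of neighbours in that order, 5 had ranges that did not overlap between the 2 libraries. These were Hsp90aa1 above Hspe1, Hspd1 above Hspa5, Hspa5 above Hspa8, Hspa8 above Hspa1b and Hspa1b above Hspa1a. From Hspe1 to Hspd1 no neighbours were separate, and their order changed between the libraries. In replicate 1 it ran Hsp90ab1, Hspe1, Hspa9, Hspa4 and Hspd1, and in replicate 2 Hspe1, Hspa4, Hsp90ab1, Hspd1 and Hspa9, while the other 5 members kept their places.

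**Figure D2:**
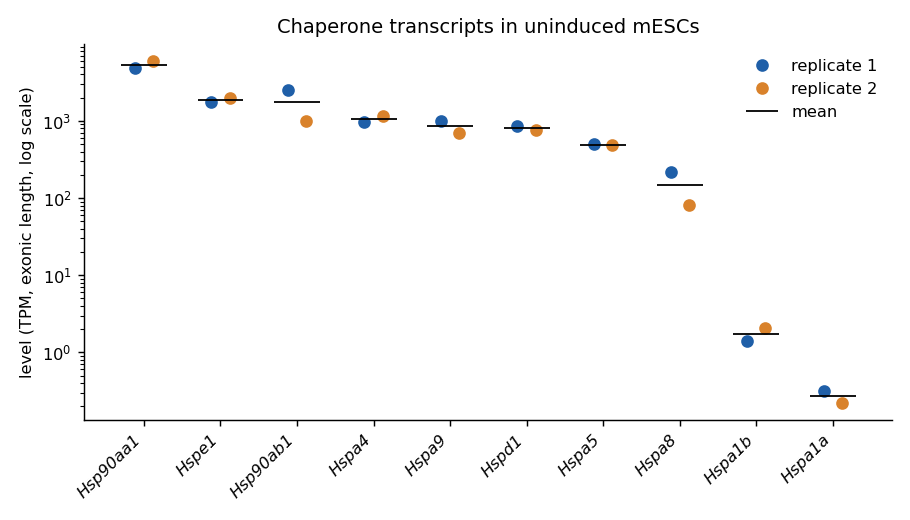
Level of each member in TPM (vertical axis, log scale, exonic length) in replicate 1 (blue) and replicate 2 (orange), with the mean of the 2 libraries as a line, ordered by the mean. Hsp90aa1 stands highest, the middle members from Hspe1 to Hspd1 overlap, Hsp90ab1 and Hspa8 show the widest gaps between libraries, and Hspa1b and Hspa1a lie near or below 2 TPM.

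Several members share long stretches with other annotated genes, so that a read from them may not have 1 place of origin. Of all 50-base words in the Hspa8 transcript, 73.2% also occurred in the transcript of another of 11 genes, 70.0% in Gm15459 alone, and in its coding sequence the share was 90.7%. For Hsp90aa1 the shares were 58.5% of the transcript and 85.4% of the coding sequence, with Gm12346 holding 51.5% of the words. Hspa1a and Hspa1b shared 60.3% and 62.3% of their words, nearly all with each other, Hspd1 44.8% (42.8% with Hspd1-ps3) and Hspe1 36.1%. Hsp90ab1 (4.49%) and Hspa9 (4.10%) shared few, and Hspa5 and Hspa4 shared none.

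For chromatin-associated RNA the study describes STAR alignment that kept only reads with 1 hit. The submitters' notes for these mRNA libraries name the same STAR version, but whether the same setting was used for them is not given in the sources used here. If every shared word had lost its reads, the mean level of Hspa8 would be 557 TPM in place of 149, that of Hsp90aa1 12979 TPM, that of Hspd1 1464 TPM and that of Hspe1 2923 TPM. By these means Hspa8 would move above Hspa5, but by library it would do so in replicate 1 (811 against 506 TPM) and not in replicate 2 (303 against 483 TPM). Hspd1 would move above Hspa4 in both libraries, with 1559 and 1369 TPM. It would also pass Hspa9 in replicate 1, while in replicate 2 it lay above Hspa9 already. In replicate 2 Hspd1 would also move above Hsp90ab1 at 1050 TPM. Hspe1 would pass Hsp90ab1 in replicate 1 (2780 against 2636 TPM), as it already lay above Hsp90ab1 in replicate 2. In both libraries Hsp90aa1 would stay first and Hspa1b and Hspa1a last. This rescaling was chosen after seeing the data and describes the case of the fullest loss, since a deposited count cannot show which reads were lost. No member overlapped another gene of the same strand in the table.

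**Figure D3:**
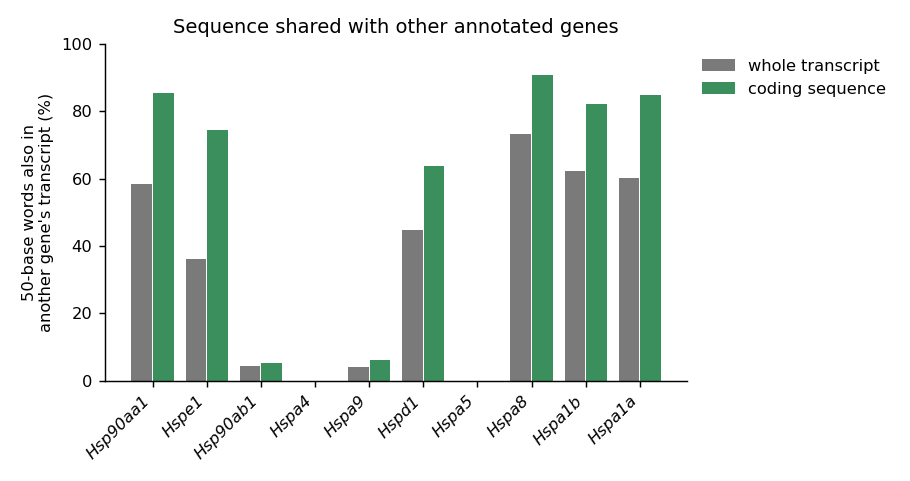
Share of 50-base words (vertical axis, percent) of each member's longest coding transcript (grey) and of its coding sequence (green) that also occur in the transcript of another gene of the GENCODE M21 annotation. Hspa8 has the highest shares (73.2% and 90.7%), and Hspa4 and Hspa5 have none.

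The counts of the 2 libraries were compared gene by gene with a two-sided exact binomial test against the library totals, adjusted by Benjamini-Hochberg over 14536 genes. Of these genes 60.8% differed beyond counting error, 15.1% higher and 45.7% lower in replicate 2, so a call by this test is common. Of the 10 members 8 were called, 3 higher and 5 lower, with a median log2 ratio of replicate 2 over replicate 1 of -0.22, beside -0.31 for all genes tested. The p-values of this test set each difference against counting error only, not against the spread between replicates. The differences may be technical.

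The members with higher CPM in replicate 2 were Hsp90aa1 (log2 ratio 0.23), Hspa4 (0.14) and Hspe1 (0.053, adjusted p = 0.0197, exact binomial test). Those with lower CPM were Hspa8 (-1.51), Hsp90ab1 (-1.42), Hspa9 (-0.58), Hspd1 (-0.28) and Hspa5 (-0.15, adjusted p = 1.98e-16, exact binomial test). Hspa1b (0.45, adjusted p = 0.284) and Hspa1a (-0.51, adjusted p = 0.640) did not pass the exact binomial test at these counts. The sizes were uneven, as the differences of Hspa8 and Hsp90ab1 were 2.85-fold and 2.67-fold in CPM and those of the other called members were smaller.

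Scaling with TMM factors, which moved all log2 ratios up by 0.22, gave 57.7% of genes called by the same test, 27.0% higher and 30.8% lower, and again 8 members, then 4 higher and 4 lower. Hspa5 turned from lower to higher (log2 0.069). DESeq2 size factors, which moved the ratios up by 0.31, called 57.8% of genes, 31.6% higher and 26.1% lower. Of the members 7 were called, 4 higher and 3 lower, with Hspa5 again higher (0.16) and Hspd1 no longer called (0.036). A wider measure of spread was the dispersion that edgeR estimated from these 2 libraries, a biological coefficient of variation of 0.317 on library totals. By more than the 95% range it gives differed 8.94% of genes, 0.0275% higher and 8.92% lower in replicate 2, so nearly every gene past this range was lower. Among the members these were Hspa8 and Hsp90ab1. With TMM factors, an alternative chosen after seeing the data, the coefficient was 0.277 and 7.53% of genes passed, 0.117% higher and 7.42% lower, and again Hspa8 (log2 -1.29) and Hsp90ab1 (-1.19). In the same libraries 8 of the 9 detected ES cell markers had lower TPM in replicate 2, from Dppa5a with 626 and 79.6 TPM and Pou5f1 with 110 and 17.2 TPM to Nanog with 798 and 749 TPM, and 1 had higher TPM. With TMM factors, which raised Nanog to a log2 ratio of 0.043, Klf4 to 0.074 and Zfp42 to 0.27, 6 of the 9 were lower. The 10 feeder fibroblast markers summed to 5.48 and 2.32 TPM, the 6 neural precursor markers to 5.03 and 4.22 TPM and the 5 primitive endoderm markers to 15.9 and 15.5 TPM. The part of these shifts in the differences of Hspa8 and Hsp90ab1 was not tested.

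The log2 ratio between the libraries fell with the GC content of the transcript. Among 1149 genes of 45% to 47% GC the median was -0.11, and among 1028 genes of 50% to 52% it was -0.44. Hspa8 (45.9% GC) lay far from genes like it, as 7 of the 1149 genes were lower. Hsp90ab1 (51.0% GC) was nearer to its class, where 53 of 1028 genes were lower and 15.0% lay below -1. Against a trend fitted on GC, 45.6% of 14395 genes were called by the exact binomial test, 24.0% higher and 21.6% lower, and 8 members, 4 higher and 4 lower. Relative to this trend Hspa8 remained at -1.34 and Hsp90ab1 at -0.91, Hspa5 was at -0.016 (adjusted p = 0.525, exact binomial test), and Hspa1b, with 58.1% GC, was at 1.22 (adjusted p = 0.00254, exact binomial test). What part GC content had in any of these differences was not tested.

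**Figure D4:**
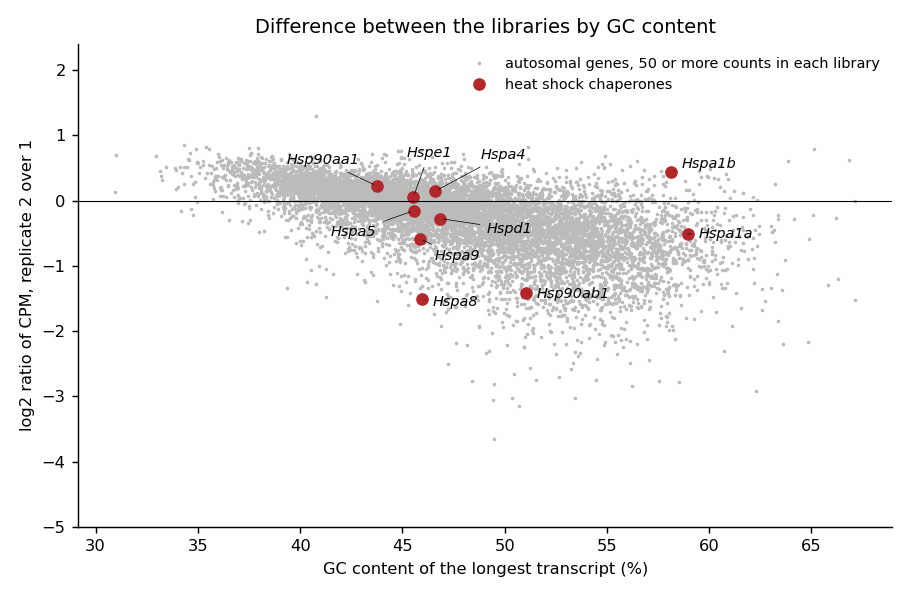
Log2 ratio of CPM, replicate 2 over replicate 1 (vertical axis), against the GC content of the longest transcript (horizontal axis, percent), for the 9244 autosomal genes that had 50 counts or more in both libraries (grey) and the 10 members (red, with Hspa1a and Hspa1b below that count). Most members lie inside the falling band of genes, Hspa8 lies below it at 45.9% GC, and Hsp90ab1 lies in its lower part.

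The partner genes of these chaperones were described from 8 lists with 87 genes. Of 80 partner genes tested 64 were called by the exact binomial test (13 higher, 51 lower in replicate 2, median log2 -0.43), beside 60.8% of all genes (15.1% higher, 45.7% lower, median -0.31). With TMM factors 66 were called (24 higher, 42 lower) and against the GC trend 61 (24 higher, 37 lower), beside 27.0% of all genes higher and 30.8% lower, and 24.0% and 21.6%. These shares are the background for the counts of each list. The edgeR range was exceeded by 16 of the 80, all lower, as were 8.92% of all genes against 0.0275% higher. Of the genes tested in each list, these were 4 of 16 ER genes, 4 of 10 HSP90 cochaperones and 3 of 4 small heat shock proteins. Also past it were 2 of 12 exchange factors and regulators, 1 of 18 J proteins and 1 of 7 mitochondrial genes. The list of other HSP70, HSP110 and HSP90 genes had 1 of 9, and the heat shock factor list 0 of 4. Among other HSP70, HSP110 and HSP90 genes (11 genes, median 13.0 TPM), Hsp90b1, the ER form of HSP90, was highest at 1464 and 1250 TPM, above Hspa5, the HSP70 of the same compartment, in both libraries. It was followed by Hspa14, a ribosome-associated HSP70, at 327 and 259 TPM and by Trap1, the mitochondrial HSP90, at 133 and 70.7 TPM. Each of these 3 was called lower in replicate 2, as were 5 of the 9 tested in this list, with 1 higher. The split became 3 higher and 5 lower with TMM factors and against the GC trend and 4 higher and 3 lower with DESeq2 size factors.

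Of the genes that drive the HSP70 cycle, the 18 J proteins, which bring clients and stimulate ATP hydrolysis, had a median of 59.3 TPM, and 16 were called (6 higher and 10 lower, 9 and 7 with TMM factors, 7 and 6 against the GC trend). Dnaja2 was highest, at 641 and 762 TPM, then Dnajc2 at 347 and 334 TPM and Dnajc7 at 221 and 151 TPM. The 12 exchange factors and regulators had a median of 25.2 TPM, with 1 called higher and 7 lower, 4 and 6 with TMM factors, and 5 and 4 against the GC trend. St13, which binds HSP70 and HSP90, was at 449 and 469 TPM, the exchange factor Bag1 at 367 and 260 TPM and Bag4 of the same family at 239 and 287 TPM. Their log2 ratios were -0.026 for St13, -0.58 for Bag1 and 0.17 for Bag4, but against the GC trend Bag1 was called higher (0.11) and St13 lower (-0.22). Past the edgeR range, which 8.94% of all genes passed, lay 2 genes of this list, named after their values were seen. They were Grpel1 (-1.65), the exchange factor of the mitochondrial HSP70, and Stub1 (-2.39), a ubiquitin ligase that binds HSP70. Against the GC trend Grpel1 was at -1.40 and Stub1 at -1.65, and Stub1 had only 70 and 11 counts.

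The 10 HSP90 cochaperones had a median of 110 TPM, and 9 were called (2 higher and 7 lower, 3 and 6 with TMM factors, 2 and 6 against the GC trend). Ptges3, which encodes the cochaperone p23, was at 1209 and 1697 TPM and the prolyl isomerase Ppid at 861 and 903 TPM. Ahsa1, the activator of the HSP90 ATPase, was at 442 and 174 TPM, with a log2 ratio of -1.43. The ratios of Ptges3 and Ppid were 0.40 and -0.019. Past the edgeR range, which 8.94% of all genes passed, lay 4 of the 10 cochaperones, all lower, namely Ahsa1 and, named after their values were seen, the adaptor Stip1, the kinase cochaperone Cdc37 and the phosphatase Ppp5c.

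The heat shock factor list (4 genes, median 127 TPM) held Hsf1, the main activator of Hspa1a and Hspa1b on heat shock, at 9.37 and 7.54 TPM, while Hsf2 was at 228 and 310 TPM and Hsbp1, a binding protein of heat shock factors, at 324 and 166 TPM. One of the 4 was called higher and 2 lower. Hsf1 was among the lower ones by a narrow margin (adjusted p = 0.0493, exact binomial test), and was not called with TMM factors (adjusted p = 0.438), against the GC trend (adjusted p = 0.311) or without the filter on low counts. Hsf2 was the one called higher (log2 0.36), and against the GC trend it was not called (0.011, adjusted p = 0.819, exact binomial test), which left 0 higher and 1 lower. Transcript levels of these factors say nothing of their activity. The 9 small heat shock proteins were mostly low (median 0.457 TPM). Hspb8 was at 55.8 and 20.6 TPM, Hspb1 at 16.0 and 4.49 TPM and Hspb6, with only 22 and 3 counts, at 2.15 and 0.364 TPM. All 3 were called lower in replicate 2. Of the 9 genes only 4 were tested, with 0 called higher and 3 lower. The split was the same with TMM factors and became 1 higher and 3 lower against the GC trend. Hspb3 and Hspb7 had 0 counts in both libraries.

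In the ER list (16 genes, median 57.0 TPM) the lectin chaperone Canx was at 1286 and 1575 TPM, Pdia3, a disulfide isomerase, at 485 and 505 TPM and Calr, the soluble counterpart of Canx, at 549 and 286 TPM. In this list 13 genes were called, 1 higher and 12 lower, 2 and 9 with TMM factors, 4 and 9 with DESeq2 size factors, and 6 and 9 against the GC trend. Hspa5 was thus close to Pdia3 and below Canx in both libraries. In the mitochondrial list (7 genes, median 35.2 TPM) the protease Yme1l1 was highest at 632 and 825 TPM, then Clpx at 105 and 109 TPM and Afg3l2 at 59.5 and 46.7 TPM, with 1 called higher and 5 lower, 2 and 5 with TMM factors, and 0 and 3 against the GC trend. Yme1l1 was the one called higher on library totals, and against the GC trend it was not called. Hspd1, Hspe1 and Hspa9 lay above Clpx and Afg3l2 in both libraries, and Hspe1 above Yme1l1 as well.

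**Figure D5:**
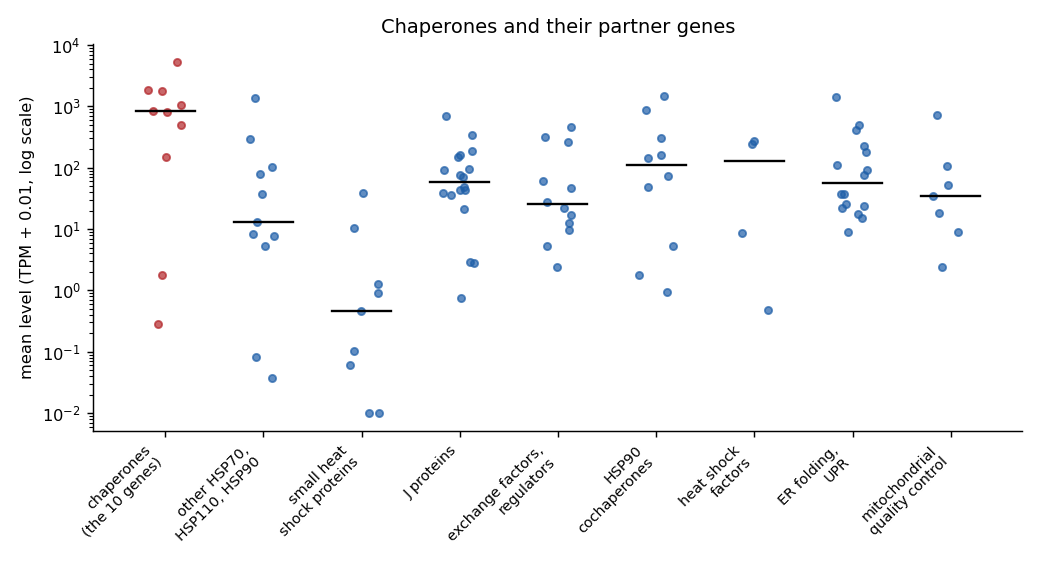
Mean level over the 2 libraries (vertical axis, TPM plus 0.01, log scale) of the 10 members (red) and of the genes of the 8 partner lists (blue), 1 point per gene, with the median of each list as a line. The members have a median of 828 TPM and the small heat shock proteins one of 0.457 TPM, and Hspa1b and Hspa1a are the 2 lowest members.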

How the data were processed

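Poly(A) RNA of 2 replicates of uninduced iXist-ChrX-Dom mESCs was sequenced. The deposited values are raw counts per gene, which the authors obtained from featureCounts. The file header gives its version as 1.5.2, with fragments counted over whole mm10 transcripts, introns included, and the reverse-stranded setting. The submitters' processing notes also name Bowtie2 2.3.2 and STAR 2.4.2a. The study states alignment to an N-masked mm10 with STAR, keeping reads with 1 hit, for chromatin-associated RNA. Whether this held for the mRNA reads is not given in the sources used here. The length column holds whole transcribed spans. The names of the count columns lack a letter b of the sample descriptions and were matched by the rest of the name. All columns of counts were used.

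TPM was computed from exonic length (GENCODE M21), found for 22122 of 22556 genes, 21239 by symbol and 883 by an older symbol. Libraries were compared with a two-sided exact binomial test (scipy 1.17.1) for all genes that had 10 counts or more over both, with a Benjamini-Hochberg threshold of 0.05. The test was first tested on simulated data. TMM factors and dispersion came from edgeR 4.0.16, size factors from DESeq2 1.42.0 and a GC trend from a polynomial of degree 3. Log2 ratios used a prior count of 0.5. Alternatives were span length, CPM, these scalings, other count filters, each replicate alone and unshared 50-base words. With 1 group there was no model across conditions. All 10 members were named, and of each partner list the 3 genes with the highest mean TPM, genes with 0 counts in both libraries, and Hsf1 and Hsf2. Other genes are named with that said, or as cell type markers or sharers of sequence. One cell type marker is not reported here by name. The 10 genes were matched by symbol alone, but the choice of members and lists was made with earlier results of these data known.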

Additional observations from a re-analysis of the deposited data

How the results depend on the processing

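The share of TPM from the members was 1.21% to 1.26% when each replicate was left out, 2.94% with the deposited span length and 1.10% as CPM. Without 1 replicate the log2 ratios ran from 1.04 to 1.37 for Hspe1 over Hspd1, from -2.57 to -0.93 for Hsp90ab1 over Hsp90aa1, from 5.15 to 6.97 for Hspa8 over the inducible pair and from 2.18 to 3.21 for Hspa1b over Hspa1a. As CPM, Hspe1 over Hspd1 reversed to -0.44, since CPM leaves out length. The count of members called fell from 8 to 2, and of partner genes from 64 to 16, with the edgeR dispersion, on library totals or after TMM scaling, which by construction allows a wider spread. Hspa5 reversed to 0.0691 with TMM factors and 0.16 with DESeq2 size factors, Hspd1 to 0.0362 with DESeq2 size factors, where it also lost its call. These factors add 0.22 and 0.31 to every log2 ratio. Hspa1a reversed to 0.26 against the GC trend, which is subtracted from its ratio. Of 87 alternatives over 28 results that kept both replicates, 55 kept direction and call or stayed within the spread, 25 moved and 5 reversed, while Hspa5 lost and Hspa1b gained a call against the GC trend. With 2 replicates, leaving 1 out always stays within 1 SD and shows nothing of stability. With span length 6 members took another rank in the order, and as CPM 5. A single library has no ranges, so the count of separate neighbours could not be recomputed without a replicate, and no count test was possible. No paired analysis was possible because only 1 group was sequenced. Counts of 4 to 35 limit Hspa1a and Hspa1b, and shared sequence limits how well the levels of Hspa8 and Hsp90aa1 are known.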
